A study of Mus musculus with 8 samples.

Results

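The 10 genes described here are taken as genes of the lung mesenchyme, though not each is confined to it. They were followed in RNA-seq of whole mouse lung across 2 stages and 2 genotypes of *Wfdc2*. That gene encodes a secreted protease inhibitor made by airway epithelium. The 10 are grouped by the cells they are taken to stand for, and all have a row among the 25965 genes of the deposited table. Wild-type (*Wfdc2*+/+) and homozygous knock-in (*Wfdc2*GFP/GFP) lungs were taken at E18.5, shortly before birth, and at P1.5, shortly after it, with 2 libraries in each of the 4 groups, 8 in all. The GFP allele is a germline knock-in from TT2 embryonic stem cells in which an IRES-EGFP cassette stands in place of part of exon 1 and all of exon 2 of *Wfdc2*, so every cell of a *Wfdc2*GFP/GFP lung carried it, and no group received a treatment. RNA came from the whole organ, so that fewer cells of a type and less RNA per cell cannot be told apart.

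Lung mesenchyme holds several kinds of cell around the airways, vessels and alveoli. Fibroblasts that carry the receptor PDGFRα answer PDGF-A from the epithelium and give rise, around birth, to the myofibroblasts of the alveolar septa. Lipofibroblasts store neutral fat in droplets next to alveolar type II cells. Pericytes wrap the capillaries and answer PDGF-B from the endothelium through PDGFRβ. Smooth muscle of airways and vessels, and to a lesser degree myofibroblasts and pericytes, contains a contractile apparatus whose genes are switched on by serum response factor with myocardin or its relatives at a short promoter element named the CArG box. The 10 genes fall into 3 groups. *Pdgfra* and *Tcf21* (a transcription factor of the fibroblast lineage) mark fibroblasts. *Plin2* (the perilipin that coats fat droplets) is placed with them for the droplets of lipofibroblasts, and is not taken to mark fibroblasts alone. *Pdgfrb* and *Cspg4* (the NG2 proteoglycan) mark pericytes. *Acta2* (smooth muscle actin), *Tagln* (transgelin, which binds actin), *Myh11* (smooth muscle myosin heavy chain), *Cnn1* (calponin) and *Des* (the intermediate filament desmin) belong to the contractile apparatus.

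The table gives log2 RPKM, reads normalized to gene length and to the reads of the library on a log2 scale, where the length is the whole gene span, introns included. On mm10 the members other than *Pdgfrb* lie at chr5:75152291-75198204 (*Pdgfra*), chr10:22817279-22820128 (*Tcf21*), chr4:86648386-86670060 (*Plin2*), chr9:56865104-56899870 (*Cspg4*), chr19:34241090-34255336 (*Acta2*), chr9:45929628-45936058 (*Tagln*), chr16:14194527-14291408 (*Myh11*), chr9:22099281-22109630 (*Cnn1*) and chr1:75360329-75368579 (*Des*). *Pdgfra*, *Pdgfrb*, *Cspg4*, *Cnn1* and *Des* are read from the plus strand and the other 5 from the minus strand. *Pdgfra* overlaps the short antisense genes *Gm42802* and *Gm42803* and a microRNA gene, *Tcf21* lies whole within the antisense gene *Gm10824*, *Tagln* overlaps the end of *Pcsk7* and an antisense gene, and *Des* overlaps the antisense *Gm15179*. Whether strand was used in counting is not given in the sources used here, so that reads of these partners could be part of the values of *Pdgfra*, *Tcf21*, *Tagln* and *Des*.

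For 3 members the 250 bases before the RefSeq start (GRCm38.p6) are shown. *Acta2* was taken because contractile genes are textbook targets of the CArG box. *Cspg4* and *Pdgfra* were taken because, on the values as deposited, only these fell with stage in *Wfdc2*GFP/GFP lungs at an adjusted p under 0.05. The sequences run 5′ to 3′ on the strand of the gene, with capitals on matches to the CArG box, on either strand, that allow 1 mismatched base. They lie at chr19:34255374-34255623 (*Acta2*, minus strand), chr9:56864854-56865103 (*Cspg4*, plus strand) and chr5:75152001-75152250 (*Pdgfra*, plus strand).
Acta2: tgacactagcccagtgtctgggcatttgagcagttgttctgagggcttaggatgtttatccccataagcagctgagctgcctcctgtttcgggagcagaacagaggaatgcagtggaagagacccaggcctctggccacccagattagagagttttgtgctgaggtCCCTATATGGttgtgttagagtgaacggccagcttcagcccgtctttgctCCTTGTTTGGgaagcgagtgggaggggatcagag
Cspg4: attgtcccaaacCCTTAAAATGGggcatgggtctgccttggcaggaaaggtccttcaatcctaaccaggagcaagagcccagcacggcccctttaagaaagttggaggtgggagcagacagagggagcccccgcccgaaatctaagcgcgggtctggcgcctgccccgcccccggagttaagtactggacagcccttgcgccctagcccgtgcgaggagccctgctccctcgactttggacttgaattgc
Pdgfra: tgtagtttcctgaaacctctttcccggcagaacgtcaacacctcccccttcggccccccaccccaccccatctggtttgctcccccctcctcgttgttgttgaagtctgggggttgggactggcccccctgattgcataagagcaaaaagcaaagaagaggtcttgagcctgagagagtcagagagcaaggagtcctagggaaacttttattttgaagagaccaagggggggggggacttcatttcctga
The *Acta2* stretch holds 2 such matches, which begin 84 and 34 bases before the start, and the *Cspg4* stretch holds 2 that overlap each other. *Tcf21*, *Plin2*, *Cnn1* and *Des*, like *Pdgfra*, hold no match in the same window, and sequences of the remaining 3 members are not shown. Of the 32851 RefSeq promoters searched in the same way, 18.6% held a match with 1 mismatch allowed and 1.47% held an exact one. None of the 7 members searched held an exact match, and a match is a description of letters, not of binding.

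The genotype labels held in the reads of *Wfdc2*, of which *Wfdc2*+/+ lungs gave 8038 to 32845 a library and *Wfdc2*GFP/GFP lungs 0 to 12. The surfactant gene *Sftpc*, of alveolar type II cells, took the most reads in 7 of the 8 libraries. Totals ran from 19457647 to 37209333 reads a library, and the 10 members drew between 149 and 17778 reads each, far above the 3 reads taken as the limit of detection. Libraries of 2 groups stood apart. Replicate 1 of *Wfdc2*GFP/GFP at E18.5 correlated with the other E18.5 libraries at a Pearson r of 0.928 to 0.943 over the 15627 tested genes, where those 3 correlated with each other at 0.964 to 0.984. At P1.5 the 2 *Wfdc2*+/+ libraries correlated at 0.917 with each other, where the 2 *Wfdc2*GFP/GFP libraries did so at 0.963. Replicate 1 of *Wfdc2*+/+ correlated at 0.942 and 0.927 with the *Wfdc2*GFP/GFP libraries of its stage and at 0.808 to 0.906 with the 4 libraries of E18.5, and replicate 2 at 0.923 and 0.932 and at 0.892 to 0.952. In replicate 2 *Sftpc* took 2.40% of reads, between the 0.644% to 1.84% of the E18.5 libraries and the 4.41% to 6.23% of the other 3 of P1.5. Which of this pair departs from its group cannot be told from 2 libraries, and values that rest on either are given without each. The 4 libraries numbered 1 had 4121 to 90980 reads of *Xist*, the RNA of the inactive X chromosome, and the 4 numbered 2 had 1 to 13, so replicate number went with sex in every group. The median log2 RPKM of the tested genes lay between -0.96 and 0.02 in the 8 libraries, was lowest in replicate 1 of both genotypes at P1.5 (-0.96 and -0.95), and at -0.22 in replicate 2 of *Wfdc2*+/+ at P1.5 lay among those of E18.5.

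*Pdgfrb* lies at chr18:61045150-61085061. All 10 members passed the filter of a mean of 0.05 RPKM. Per kilobase of exon, averaged over the 8 libraries as log2 RPKM, *Tagln* (6.66), *Tcf21* (6.62) and *Acta2* (6.62) stood at the top and differed from each other by less than the spread between libraries. *Plin2* (5.50), *Des* (4.37), *Pdgfrb* (4.25), *Pdgfra* (3.33), *Myh11* (3.03) and *Cnn1* (2.18) followed, and *Cspg4* (1.30) was the lowest. Between the highest and the lowest library the log2 RPKM of a member ranged over 1.58 (*Plin2*) to 3.53 (*Myh11*). The values below are per kilobase of gene span, as deposited.

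**Figure D1:**
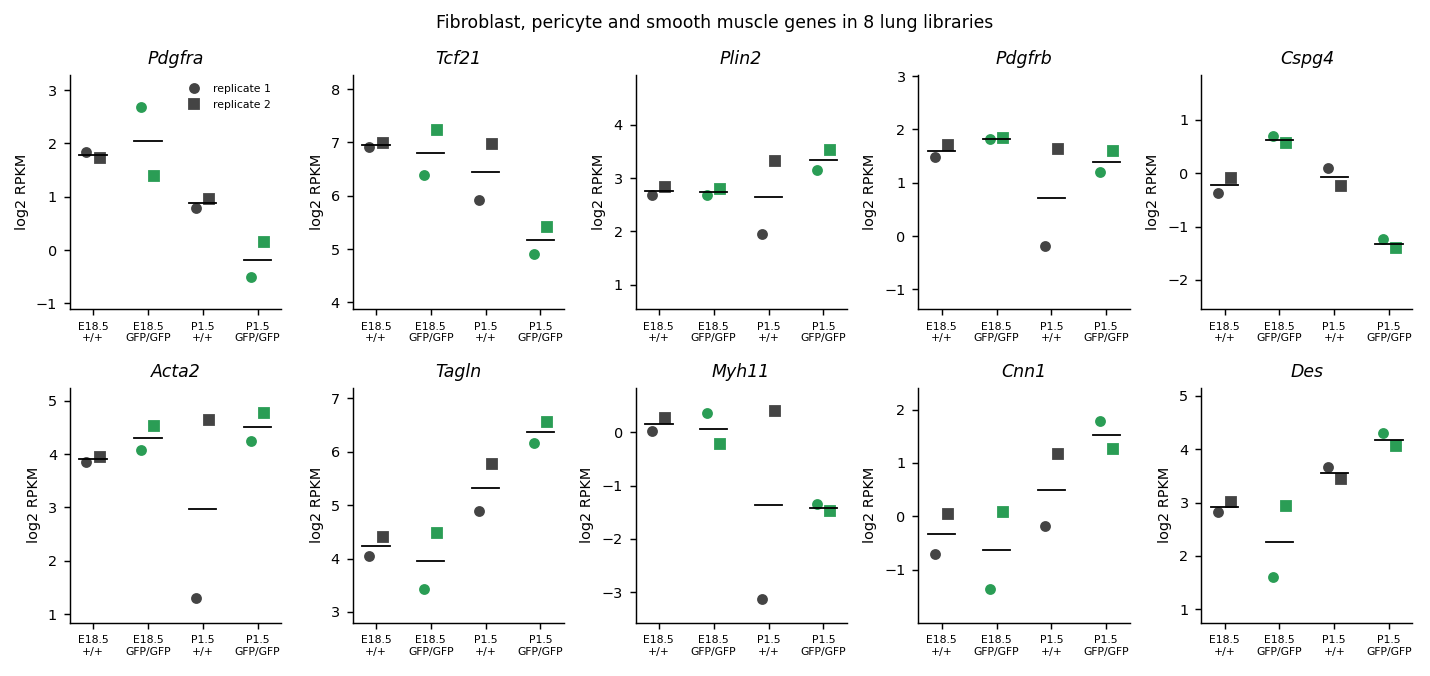
Log2 RPKM (y axis, of the same height in every panel) of the 10 genes in each library. Grey stands for *Wfdc2*+/+ and green for *Wfdc2*GFP/GFP, circles for replicate 1 and squares for replicate 2, and the bar is the mean of 2 libraries. *Acta2* and *Myh11* of replicate 1 of *Wfdc2*+/+ at P1.5 lie at 1.31 and -3.13, far below the other 7 libraries.

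The fibroblast receptor *Pdgfra* was highest before birth. At E18.5 its log2 RPKM was 1.84 and 1.73 in *Wfdc2*+/+ against 2.69 and 1.40 in *Wfdc2*GFP/GFP lungs, and at P1.5 it was 0.79 and 0.96 in *Wfdc2*+/+ against -0.51 and 0.15 in *Wfdc2*GFP/GFP lungs. Both P1.5 libraries of each genotype lay below both of its E18.5 libraries, and at P1.5 the 2 *Wfdc2*GFP/GFP libraries were the lowest of all 8. *Tcf21* read 6.91 and 6.99 in *Wfdc2*+/+ against 6.39 and 7.23 in *Wfdc2*GFP/GFP lungs at E18.5, then 5.93 and 6.98 in *Wfdc2*+/+ against 4.92 and 5.41 in *Wfdc2*GFP/GFP lungs at P1.5. Again the 2 lowest libraries were the *Wfdc2*GFP/GFP lungs of P1.5, while the 2 *Wfdc2*+/+ libraries of that stage lay far apart. *Plin2*, the droplet protein, was close to level at E18.5, with 2.69 and 2.84 in *Wfdc2*+/+ against 2.69 and 2.80 in *Wfdc2*GFP/GFP lungs, and at P1.5 read 1.95 and 3.32 in *Wfdc2*+/+ against 3.15 and 3.53 in *Wfdc2*GFP/GFP lungs. Its genotypes overlapped at both stages.

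The 2 pericyte genes did not follow each other. *Pdgfrb* had 1.49 and 1.72 in *Wfdc2*+/+ against 1.81 and 1.84 in *Wfdc2*GFP/GFP lungs at E18.5, and -0.19 and 1.62 in *Wfdc2*+/+ against 1.20 and 1.59 in *Wfdc2*GFP/GFP lungs at P1.5. A single library, replicate 1 of *Wfdc2*+/+ at P1.5 with 762 reads, was far below the other 7, which had 2128 to 5218. *Cspg4* had -0.37 and -0.08 in *Wfdc2*+/+ against 0.71 and 0.56 in *Wfdc2*GFP/GFP lungs at E18.5, and 0.09 and -0.24 against -1.23 and -1.41 at P1.5. The *Wfdc2*GFP/GFP lungs were thus the highest pair before birth and the lowest pair after it, and the 4 *Wfdc2*+/+ libraries lay between them.

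Among the contractile genes, *Tagln*, *Cnn1* and *Des* shared a course. *Tagln* read 4.04 and 4.41 in *Wfdc2*+/+ against 3.44 and 4.48 in *Wfdc2*GFP/GFP lungs at E18.5, then 4.89 and 5.77 against 6.17 and 6.56 at P1.5, which places all 4 postnatal libraries above all 4 of E18.5 and both *Wfdc2*GFP/GFP lungs on top. *Des* read 2.83 and 3.0 against 1.60 and 2.93 at E18.5, then 3.68 and 3.44 against 4.30 and 4.05 at P1.5, in the same order of groups. *Cnn1*, with 149 to 827 reads the least covered contractile gene, read -0.70 and 0.05 against -1.37 and 0.09 at E18.5, then -0.18 and 1.18 against 1.79 and 1.26 at P1.5. The lowest library of the 8 for each of these 3 genes was replicate 1 of *Wfdc2*GFP/GFP at E18.5, which stood apart from the others of its stage.

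*Acta2* and *Myh11* behaved otherwise. *Acta2* read 3.86 and 3.95 in *Wfdc2*+/+ against 4.07 and 4.53 in *Wfdc2*GFP/GFP lungs at E18.5, and 1.31 and 4.63 against 4.25 and 4.78 at P1.5. The value of 1.31 came from 765 reads in replicate 1 of *Wfdc2*+/+, where its replicate had 6884, and the other 7 libraries lay between 3.86 and 4.78. *Myh11* read 0.03 and 0.27 against 0.35 and -0.21 at E18.5, and -3.13 and 0.40 against -1.34 and -1.48 at P1.5, with 240 and 2484 reads in the 2 *Wfdc2*+/+ libraries. Leaving that first library aside, both *Wfdc2*GFP/GFP lungs of P1.5 had less *Myh11* than any other library. Summed over the 5 contractile members, replicate 1 of *Wfdc2*+/+ at P1.5 had 351 RPM (reads normalized to the library total only), where the other 3 libraries of that stage had 945 to 1195 and the 4 of E18.5 had 462 to 629.

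Every comparison below used limma's moderated test on the log2 RPKM of all 15627 tested genes, with p-values adjusted over all of them and called at an adjusted p under 0.05. The comparisons share libraries and are not independent of each other. An exact permutation test of 2 libraries against 2 cannot give a two-sided p below 0.33 and was therefore not used.

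From E18.5 to P1.5 in *Wfdc2*GFP/GFP lungs, *Tagln* rose and *Pdgfra* and *Cspg4* fell, 3 of the 10 members, beside 4.55% of all tested genes. *Tagln* rose 5.32-fold (log2 difference 2.41, 95% interval 1.36 to 3.46, adjusted p = 0.0425). *Pdgfra* fell by 2.22 on the log2 scale (interval -3.29 to -1.16, adjusted p = 0.0461) and *Cspg4* fell by 1.95 (interval -2.71 to -1.19, adjusted p = 0.0359). Just outside the threshold were *Des* with 1.91 (adjusted p = 0.0503), *Tcf21* with -1.64 (adjusted p = 0.0656) and *Cnn1* with 2.16 (adjusted p = 0.0685). *Myh11* (-1.48, adjusted p = 0.290), *Plin2* (0.60, adjusted p = 0.353), *Pdgfrb* (-0.43, adjusted p = 0.585) and *Acta2* (0.21, adjusted p = 0.865) were not called. At an unadjusted p under 0.05 stood 6 members of 10, beside 35.6% of tested genes, and the 2 stages did not overlap for 9 of 10, beside 67.2%.

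The split of those calls by direction depended on the scaling. The median of all tested genes itself differed by -0.46, so relative to it *Tagln* stood at 2.87, *Cnn1* at 2.62, *Des* at 2.37, *Pdgfra* at -1.76 and *Cspg4* at -1.49. As deposited, 252 genes were called higher and 459 lower, and with every library centred on its median 849 were called higher and 430 lower. Under that centring the members called were *Tagln* (3.09, adjusted p = 0.0294), *Cnn1* (2.84, adjusted p = 0.0422) and *Des* (2.59, adjusted p = 0.04365), while *Pdgfra* (-1.55, adjusted p = 0.05245) and *Cspg4* (-1.27, adjusted p = 0.0735) missed the threshold. Without replicate 1 of *Wfdc2*GFP/GFP at E18.5 no member was called, with *Tagln* at 1.89 (adjusted p = 0.227), *Pdgfra* at -1.58 (adjusted p = 0.233) and *Cspg4* at -1.88 (adjusted p = 0.204). Leaving out either *Wfdc2*GFP/GFP library of P1.5 or either *Wfdc2*+/+ library of E18.5 also left no call, with 0.0% to 0.525% of all tested genes called in these 5 fits. Leaving out replicate 2 of *Wfdc2*GFP/GFP at E18.5 left 5 members called beside 15.7% of tested genes, and leaving out replicate 1 or replicate 2 of *Wfdc2*+/+ at P1.5 left 7 beside 31.2% or 31.1%. Replicate number, which went with sex, changed the calls too: as a block over all 8 libraries it left *Tagln* alone, beside 0.8% of tested genes, and as a block within each stage it gave 6 members, *Tagln*, *Pdgfra*, *Cspg4*, *Des*, *Tcf21* and *Cnn1*, beside 26.6%. The directions of *Tagln*, *Cnn1*, *Des*, *Pdgfra*, *Tcf21* and *Cspg4* held in each of these fits and under each scaling tried.

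**Figure D2:**
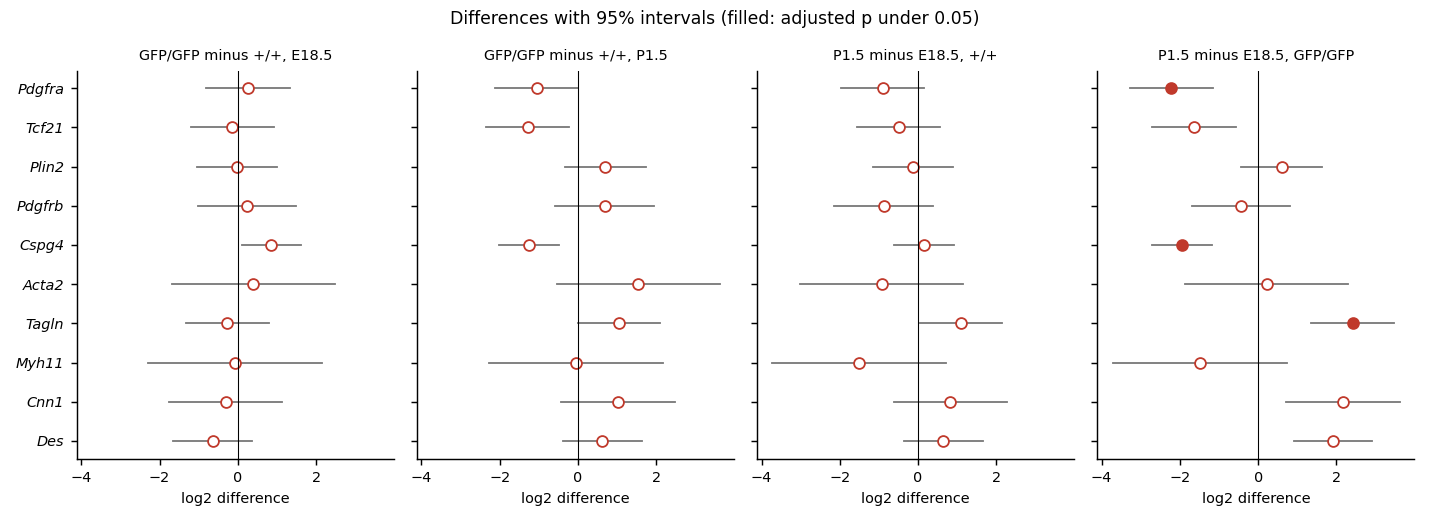
Log2 difference (x axis) of each gene in 4 comparisons, with the 95% interval of limma's fit as a line and the estimate as a point, filled where the adjusted p was under 0.05. The filled points are *Pdgfra*, *Cspg4* and *Tagln* in the comparison of stages in GFP/GFP lungs, at -2.22, -1.95 and 2.41.

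In *Wfdc2*+/+ lungs, no member was called between the stages, beside 0.0576% of tested genes. *Tagln* was 1.10 higher at P1.5 (interval 0.05 to 2.15, unadjusted p = 0.0419, adjusted p = 0.418) and was the 1 member of 10 under an unadjusted p of 0.05, beside 11.8% of tested genes. *Cnn1* differed by 0.83, *Des* by 0.64, *Pdgfra* by -0.91 and *Tcf21* by -0.50, each in the direction seen in *Wfdc2*GFP/GFP lungs, with adjusted p-values of 0.447 to 0.560, though *Tcf21* came to 0.02 and *Cnn1* to 1.5 without replicate 1 of P1.5 and *Cnn1* to 0.15 without replicate 2. *Cspg4* differed by 0.15, its interval running from -0.61 to 0.91. The 2 stages did not overlap for *Tagln*, *Des* and *Pdgfra*, 3 of 10 beside 55.6%. *Acta2* (-0.93), *Myh11* (-1.52) and *Pdgfrb* (-0.88) depended on the library taken at P1.5: without replicate 1 they came to 0.73, 0.25 and 0.02, and without replicate 2 they came to -2.60 (adjusted p = 0.0192), -3.28 (adjusted p = 0.0156) and -1.79 (adjusted p = 0.0251), each then called. In that last fit 13.9% of all tested genes were called, where the fit without replicate 1 called 0.0512%, so that a single library set the count over all genes. The median of all tested genes differed by -0.15, and relative to it *Tagln* stood at 1.25, *Des* at 0.79 and *Pdgfra* at -0.76.

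At P1.5, *Cspg4*, *Tcf21* and *Pdgfra* were lower in both *Wfdc2*GFP/GFP lungs than in either *Wfdc2*+/+ lung, and *Tagln*, *Cnn1* and *Des* were higher. None of these differences was called after adjustment, beside 0.0128% of tested genes. The log2 difference was -1.25 for *Cspg4* (interval -2.01 to -0.49, adjusted p = 0.305), -1.29 for *Tcf21* (interval -2.36 to -0.22, adjusted p = 0.382) and -1.06 for *Pdgfra* (interval -2.12 to 0.01, adjusted p = 0.460). It was 1.04 for *Tagln* (interval -0.01 to 2.09, adjusted p = 0.462), 1.02 for *Cnn1* (interval -0.43 to 2.47, adjusted p = 0.600) and 0.62 for *Des* (interval -0.38 to 1.62, adjusted p = 0.654). *Cspg4* and *Tcf21* had an unadjusted p under 0.05, 2 of 10 beside 10.9%, and the 6 genes without overlap stand beside 39.4% of tested genes. *Acta2* (1.54), *Pdgfrb* (0.68), *Plin2* (0.70) and *Myh11* (-0.05) overlapped between the genotypes. The median of all tested genes differed by -0.20, and relative to it *Tagln* stood at 1.24, *Cnn1* at 1.22, *Tcf21* at -1.09, *Cspg4* at -1.05, *Pdgfra* at -0.86 and *Des* at 0.82.

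The last 4 values depended on which *Wfdc2*+/+ library was kept. Without replicate 1, *Acta2* came to -0.12, *Pdgfrb* to -0.23, *Plin2* to 0.02 and *Myh11* to -1.81 (adjusted p = 0.0799). Without replicate 2 of *Wfdc2*+/+, *Acta2* came to 3.21 (adjusted p = 0.0393), the only call of a member between the genotypes in the fits tried, beside 0.154% of tested genes, while *Myh11* came to 1.72, *Pdgfrb* to 1.58 and *Plin2* to 1.39. *Tcf21* was -1.81 without replicate 1 and -0.77 without replicate 2, and *Cspg4* was -1.08 and -1.41. *Tagln* was 0.60 without replicate 1 and 1.48 without replicate 2, and *Cnn1* was 0.35 and 1.70.

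At E18.5 no member was called between the genotypes, beside 0.0192% of tested genes, and the adjusted p of every member was 1.0 after rounding. *Cspg4* was 0.86 higher in *Wfdc2*GFP/GFP lungs (interval 0.09 to 1.62, unadjusted p = 0.0321), the 1 member of 10 under an unadjusted p of 0.05, beside 4.37%. Its 2 libraries, like those of *Acta2* (0.40) and *Pdgfrb* (0.23), lay above both *Wfdc2*+/+ libraries, 3 of 10 beside 36.0%. The other 7 overlapped, with differences from -0.65 (*Des*, interval -1.65 to 0.36) to 0.26 (*Pdgfra*, interval -0.80 to 1.32). Without replicate 1 of *Wfdc2*GFP/GFP, *Cspg4* came to 0.78 and *Acta2* to 0.62, while *Des* came to 0.02, *Tagln* to 0.25, *Cnn1* to 0.42 and *Pdgfra* to -0.39.

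The difference between the genotype effects of the 2 stages was called for no member, beside 0.0% of tested genes by limma. At an unadjusted p under 0.05 there were 1599 of the 15627 genes, 10.2%, and 1 member of 10, *Cspg4*, at -2.10 (interval -3.18 to -1.03, unadjusted p = 0.00206, adjusted p = 0.215). For *Tagln*, *Cnn1* and *Des* the difference was 1.31, 1.34 and 1.27, and for *Pdgfra* and *Tcf21* -1.31 and -1.14, with adjusted p-values of 0.541 to 0.669. Without replicate 1 of *Wfdc2*GFP/GFP at E18.5 *Tagln* came to 0.79, *Cnn1* to 0.61, *Des* to 0.60, *Pdgfra* to -0.67 and *Cspg4* to -2.03. The larger changes from E18.5 to P1.5 in *Wfdc2*GFP/GFP lungs are therefore not shown to differ from those in *Wfdc2*+/+ lungs.

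Transcript length moved with these results. Among the tested genes with a length in the annotation (13772), those with over 5000 bases of exon had a median stage difference of -0.97 in *Wfdc2*GFP/GFP and -0.46 in *Wfdc2*+/+ lungs, and those under 2000 bases had 0.34 and 0.60. *Tagln* has 1988 bases of exon, *Pdgfra* 10024 and *Cspg4* 11931. *Acta2* (2196), *Tcf21* (2349), *Cnn1* (2736), *Plin2* (3512) and *Des* (3754) lie between, and *Pdgfrb* (5478) and *Myh11* (7599) are long. Over the 10 members the stage difference in *Wfdc2*GFP/GFP lungs had a Pearson r of -0.692 with log2 exon length, and the genotype difference at P1.5 one of -0.613, given as descriptions because the 10 share the same libraries. Over all 13772 genes with a length the same 2 values were -0.366 and -0.093, so that the genotype difference at P1.5 went little with length over all genes. With a smooth trend on exon length taken out of each library, a fit chosen after seeing the data, *Tcf21* (-1.66, adjusted p = 0.0376), *Tagln* (2.24, adjusted p = 0.0306), *Cnn1* (2.29, adjusted p = 0.0479) and *Des* (2.34, adjusted p = 0.0441) were called between the stages in *Wfdc2*GFP/GFP lungs, beside 8.28% of the genes in that fit, and *Pdgfra* (-1.13, adjusted p = 0.0760) and *Cspg4* (-0.79, adjusted p = 0.265) were not. *Tcf21* had been at -1.64 and *Des* at 1.91 before the trend was removed, and the 2 long genes at -2.22 and -1.95. Removing the trend also centred the libraries: the median stage difference of the genes fitted was then -0.02, where it was -0.46 as deposited. With median centring alone *Tcf21* stood at -0.97, *Des* at 2.59, *Pdgfra* at -1.55 and *Cspg4* at -1.27. How much of each shift went with length alone was not tested. Without the trend the difference between the genotypes at P1.5 was -1.32 for *Tcf21*, 0.99 for *Tagln*, -0.86 for *Cspg4* and -0.71 for *Pdgfra*, none called.

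**Figure D3:**
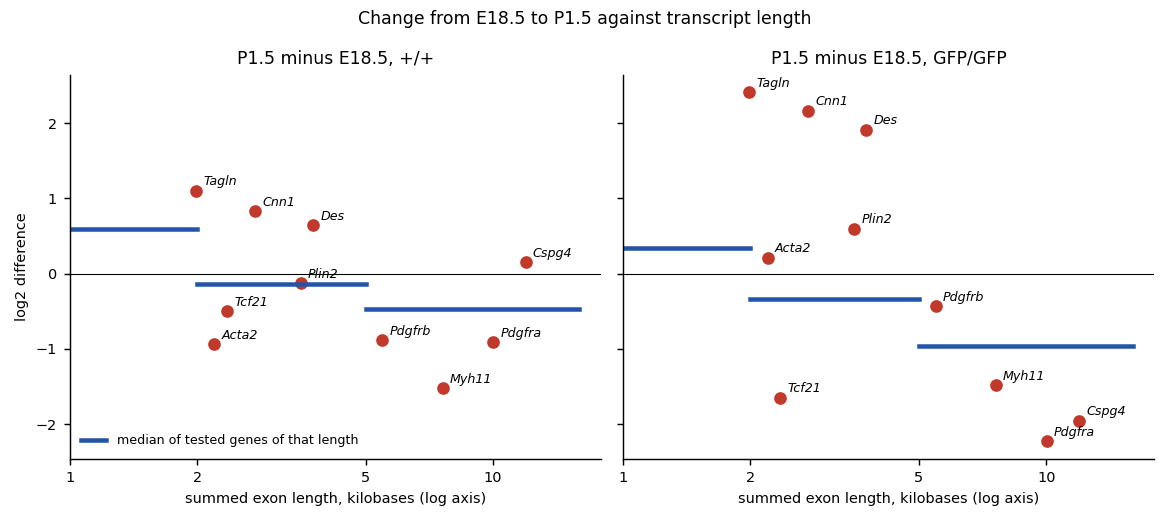
Log2 difference between P1.5 and E18.5 (y axis) of the 10 genes against their summed exon length in kilobases (log x axis) in each genotype, with blue bars for the median of all tested genes under 2000, of 2000 to 5000 and over 5000 bases. In *Wfdc2*GFP/GFP lungs *Tagln*, *Cnn1* and *Des* lie far above the bar of their length and *Tcf21*, *Pdgfra* and *Cspg4* below it.

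**Figure D4:**
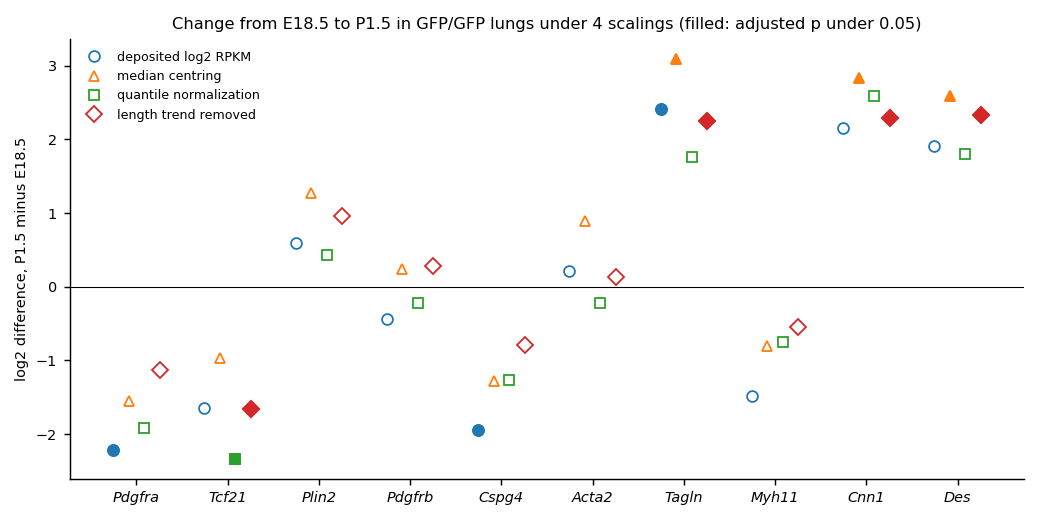
Log2 difference between P1.5 and E18.5 in *Wfdc2*GFP/GFP lungs (y axis) of each gene as deposited, with libraries centred on their medians, after quantile normalization and with the trend on transcript length removed, filled where the adjusted p was under 0.05. *Tagln*, *Cnn1* and *Des* lie above 0 and *Pdgfra*, *Tcf21*, *Cspg4* and *Myh11* below 0 under all 4, while which of them are filled differs.

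The other genes of these programs give the setting. Of 20 further contractile genes, all tested, 1 was called between the stages in *Wfdc2*GFP/GFP lungs, beside 4.55% of all tested genes. This was *Mustn1*, a small nuclear protein of muscle, which rose by 2.14 (adjusted p = 0.0210). The median of the 20 was -0.16, beside -0.46 over all tested genes. In *Wfdc2*+/+ lungs none was called, 5 of 20 were higher at P1.5, and the extremes were *Mustn1* (1.22) and *Vcl*, vinculin (-1.16). Between the genotypes at P1.5 none was called, with 11 of 20 higher, a median of 0.18 beside -0.20 over all tested genes, and the largest increase in *Tpm2*, a tropomyosin (1.07). Of serum response factor and its partners, *Srf* differed by 0.07 and *Mkl2* by -1.74 (adjusted p = 0.0759) between the stages in *Wfdc2*GFP/GFP lungs, while in *Wfdc2*+/+ lungs *Mkl1* differed by 0.08 and *Mkl2* by -0.70. Between the genotypes at P1.5 *Srf* differed by 0.26 and *Mkl1* by -0.71, and none of the 3 tested was called in any comparison. *Myocd* was below the filter.

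Of 19 further fibroblast genes tested, 18 were lower at P1.5 than at E18.5 in *Wfdc2*GFP/GFP lungs, with a median of -1.08 beside -0.46 over all tested genes. At an unadjusted p under 0.05, 8 of the 19 were lower, beside 26.0% of all tested genes. Only 1 was called, beside 4.55% of all tested genes: *Col14a1*, a collagen of fibroblasts, fell by 2.45 (adjusted p = 0.04997). *Fgfr4* (-1.73), *Fgf10* (-1.73, a growth factor for the epithelium) and *Tbx4* (-2.25, a transcription factor of lung mesenchyme) had adjusted p-values of 0.0526 to 0.0615, and *Lpl* (0.32) was the one gene higher. In *Wfdc2*+/+ lungs 14 of 19 were lower, none called, with a median of -0.57 beside -0.15 over all tested genes. The extremes were *Plin4* (1.36) and *Itga8* (-1.61). Between the genotypes at P1.5, 15 of 19 were lower, none called, with a median of -0.54 beside -0.20 over all tested genes. The extremes there were *Npnt*, nephronectin (0.36), and *Plin4* (-2.85, adjusted p = 0.331), and 5 genes, all lower, had an unadjusted p under 0.05, where 7.33% of all tested genes were lower at that p. Summed over the 19 genes, the 2 *Wfdc2*GFP/GFP lungs of P1.5 had 1163 and 1275 RPM and the *Wfdc2*+/+ lungs 1257 and 2658.5, with 2232 to 2667 at E18.5, so that replicate 1 of *Wfdc2*+/+ lay between the *Wfdc2*GFP/GFP lungs.

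Of 10 further pericyte genes, *Cox4i2*, a subunit of cytochrome oxidase, rose by 1.96 (adjusted p = 0.0477) between the stages in *Wfdc2*GFP/GFP lungs. *Abcc9*, a subunit of a potassium channel, fell by 2.75 (adjusted p = 0.0471). These 2 of the 10 were called, beside 4.55% of all tested genes. The median of the 10 was 0.03, beside -0.46 over all tested genes. The same 2 were the extremes in *Wfdc2*+/+ lungs, at 1.40 and -1.18, none called, and *Cox4i2* has 788 bases of exon where *Abcc9* has 8373. Between the genotypes at P1.5 none was called, with extremes in *Mcam* (1.22) and *Abcc9* (-0.89). The median there was -0.21, beside -0.20 over all tested genes. Of the PDGF ligands, *Pdgfa* differed by 0.48 and *Pdgfd* by -0.95 between the stages in *Wfdc2*GFP/GFP lungs, *Pdgfa* by 0.60 and *Pdgfb* by -0.68 in *Wfdc2*+/+ lungs, and *Pdgfb* by 0.78 and *Pdgfd* by -0.87 between the genotypes at P1.5, none called, and *Pdgfc* was below the filter. Of 6 tested genes of fat storage beside *Plin2*, none was called in any of the 3, with *Cidec* at 1.74 and *Dgat2*, which makes triglyceride, at -1.14 in *Wfdc2*GFP/GFP lungs between the stages, 2.27 and -1.57 in *Wfdc2*+/+ lungs, and *Dgat2* at 0.93 and *Plin3* at -0.68 between the genotypes at P1.5.

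Markers of other cells varied beside the members. The 12 genes of cardiac and skeletal muscle, tissues that also express *Des*, summed to 157 to 716.5 RPM at E18.5 and 279 to 778 at P1.5, with all 12 read in every library. The atrial hormone gene *Nppa* had log2 RPKM from -5.66 to 6.87. Between the genotypes at P1.5, the extremes of the list were *Nppa* (2.99) and *Acta1* (-0.53). *Actc1*, the actin of heart, was 1.89 higher in *Wfdc2*GFP/GFP lungs (adjusted p = 0.388). In that comparison 9 of the 10 tested genes of the list were higher, and at E18.5 all 10 were higher in *Wfdc2*GFP/GFP lungs, none called at either stage. Between the stages in *Wfdc2*GFP/GFP lungs 7 of the 10 were higher at P1.5, with a median of 0.30 beside -0.46 over all tested genes. In *Wfdc2*+/+ lungs 8 of the 10 were higher, with a median of 0.93 beside -0.15. The 6 epithelial markers summed to 8178 to 20216 at E18.5 and 25590 to 64357 at P1.5, most of it *Sftpc* in every library. The other 5 summed to 1734 to 1937 at E18.5 and 1401 to 2336.5 at P1.5, and each of them was lower at P1.5 in *Wfdc2*+/+ lungs, from -0.08 (*Epcam*) to -1.12 (*Cdh1*), none called. Leukocyte markers summed to 142 to 714 at E18.5 and 1495 to 2265 at P1.5, and *S100a8* and *S100a9*, of neutrophils, rose by 4.17 (adjusted p = 0.0320) and 4.85 (adjusted p = 0.0189) between the stages in *Wfdc2*GFP/GFP lungs. In *Wfdc2*+/+ lungs *S100a8* rose by 3.93, not called. Between the genotypes at P1.5 it differed by -0.20, and the other 5 leukocyte markers were higher in *Wfdc2*GFP/GFP lungs, none called. Endothelial markers summed to 1171 to 2043, lowest in replicate 1 of *Wfdc2*+/+ at P1.5, mesothelial markers to 292 to 2045, cartilage markers to 3.87 to 36.2 (*Sox9* fell by 2.52 between the stages in *Wfdc2*GFP/GFP lungs, adjusted p = 0.0390) and glial markers to 5.53 to 20.5. The defining markers *Pecam1*, *Epcam*, *Ptprc*, *Actc1*, *Myh6* and *Msln* were read in every library. The part of these cells in the members' differences was not tested.

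The likeness of patterns over the 8 libraries is given as Pearson r, with no test, because all genes share the stages, the sexes and the libraries that stood apart. *Tagln* went with *Cnn1* (0.949) and *Des* (0.905), *Acta2* with *Pdgfrb* (0.917) and *Plin2* (0.887), and *Pdgfra* ran against *Des* (-0.966), *Tagln* (-0.923) and *Cnn1* (-0.909). Members of the same group did not all go together. The 2 pericyte members *Pdgfrb* and *Cspg4* had 0.065, *Pdgfra* and *Plin2* had -0.386, and *Tagln* and *Myh11* had -0.419. The group means used next therefore do not stand for a pattern that their members share. The genes most like the mean of the 3 fibroblast members were *Cfl2* (0.998), *Fzd7* (0.996), *AW209491* (0.992), *Vipar* (0.991) and *Det1* (0.991). Most like the mean of the 2 pericyte members were *Cyth1* (0.988), *Dynlt1b* (0.985), *Pts* (0.984), *Gprc5c* (0.983) and *Agbl5* (0.983), and most like the mean of the 5 contractile members were *Mmp15* (0.992), *Endou* (0.992), *H2-Ab1* (0.984), *Gpr56* (0.980) and *H2-Eb1* (0.978). None of these genes stands on a list of mesenchymal or marker genes used here, and each was picked as the highest among 15627 genes. *Dynlt1b* had only 0 to 61 reads a library.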

How the data were processed

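Whole-lung RNA of 4 groups (2 genotypes at 2 stages, 2 libraries each) was sequenced from directional libraries on 2 Illumina instruments. Which library ran on which is not given in the sources used here. The authors trimmed reads with Trim Galore 0.4.0, mapped them to mm10 with TopHat2 2.1.1, then quantified them in SeqMonk. What they deposited is log2 RPKM of 25965 genes in each library. The values show that length was the whole gene span and that 0.9 read stands in for none.

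From these, reads were recovered as multiples of each library's step (99.86% to 99.97% of values within 0.02 of a whole number), which gives totals of 19457647 to 37209333, and 3 reads as 0.0806 to 0.154 RPM. Exon lengths came from GENCODE M21, for 13772 of 15627 tested genes, those averaging 0.05 RPKM or more. Their log2 RPKM entered a linear model in limma 3.58.1 (R 4.3.3) with no added pseudocount, as group means (4 residual degrees of freedom, trended prior). P-values are two-sided and Benjamini-Hochberg adjusted over all 15627, called under 0.05. Intervals are 95%. The fit was also run on simulated reads, with an outcome that is not reported here. Those reads had the same spread for every gene and no outlying library, sex difference or length trend. That run therefore cannot show how the fit deals with these features. The *Xist* reads differed between the 2 libraries of every group, so these came from animals of different sex. P-values therefore measure a spread between libraries that joins differences between animals and between the sexes, and may be partly technical. The paper calls the *Wfdc2*+/+ lungs littermate controls, and the replicate numbers are not stated to match littermates.

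The members and gene lists were chosen with earlier results of these data known. Named in the text are the 10 members, *Wfdc2*, for each list the tested genes with the largest increase and decrease and those called, the 5 genes most like each group of members, and the defining markers of other cells, and some results under this rule are not reported here. *Xist*, *Sftpc*, *Fgfr4*, *Fgf10*, *Tbx4*, *Nppa* and the overlapping genes were named after their values were seen. *Foxf1*, on the fibroblast list, was not found under that symbol. Alternatives were a pseudocount of 1 RPKM, no filter or 0.5 RPKM, median centring, quantile normalization, the replicate block, a robust prior, the 4 libraries of a stage alone and each library left out. Removal of the length trend and voom on recovered reads at library totals were added after seeing the data. Tables were made in Python 3.11.15 with pandas 2.3.3 and numpy 2.4.6, figures with matplotlib 3.10.9.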

Additional observations from a re-analysis of the deposited data

Results flagged for a closer look

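*Cspg4*, the proteoglycan of pericytes, stood out because its genotype difference had opposite signs at the 2 stages, with no overlap between genotypes at either. Its log2 RPKM was higher in both *Wfdc2*GFP/GFP lungs at E18.5 (0.86) and lower in both at P1.5 (-1.25), a difference between the effects of -2.10 (limma, adjusted p = 0.215), which fails the correction. With libraries centred on their medians it was -1.69 (adjusted p = 0.334) and with the trend on transcript length removed -1.50 (adjusted p = 0.347). Opposite differences without overlap at both stages were shown by 1550 tested genes, 9.92%, of which 1306, 8.36% of those tested, had the direction of *Cspg4*.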

How the results depend on the processing

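Over all 5 comparisons, 920 refits of single members gave 827 values with the same direction and side of the threshold, 25 newly called, 31 no longer called and 37 of opposite sign. The count of members called between the stages in *Wfdc2*GFP/GFP lungs, 3 as reported, was 0 with a pseudocount of 1 RPKM (beside 1.52% of all genes tested), 1 with no filter (*Cspg4*, beside 1.34%), 5 with a filter of 0.5 RPKM (10.7%), 1 after quantile normalization (*Tcf21*, 4.52%), 1 by voom on recovered reads (*Cspg4*, 0.825%), and 0 to 7 when each library was left out. Leaving out each library gave 0 to 1 member called between the genotypes at P1.5 and 0 to 3 between the stages in *Wfdc2*+/+ lungs, in both cases through replicate 2 of *Wfdc2*+/+ at P1.5, and 0 to 0 in the other comparisons. The cause of these changes was not tested. Leaving out a library can leave 1 in a group, which is then assumed to vary like the others.

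The replicate numbers are not stated to pair animals. Same-numbered libraries deviated from their group means with r of 0.230 at E18.5, 0.210 at P1.5, -0.0174 between stages in *Wfdc2*+/+ and -0.00682 in *Wfdc2*GFP/GFP lungs, over 2 pairs each. With a replicate block within stage 6 members were called between the stages in *Wfdc2*GFP/GFP lungs, beside 26.6% of tested genes, and with a replicate block over all 8 libraries 1 (*Tagln*), beside 0.8%. No member was called under either block in the other comparisons.

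Signs changed as follows. Between the genotypes at P1.5, *Myh11* came to 0.15 with median centring, 0.26 after quantile normalization and 0.24 without the length trend. *Plin2* between the stages in *Wfdc2*+/+ lungs came to 0.139 and 0.0491, and *Pdgfrb* in *Wfdc2*GFP/GFP lungs to 0.24 and 0.28, with centring and without the length trend. *Acta2* in *Wfdc2*GFP/GFP lungs came to -0.22 after quantile normalization, and the difference between genotype effects of *Myh11* to -0.19 with the pseudocount. Leaving out each library, the genotype difference at P1.5 ran from -0.23 to 1.58 (*Pdgfrb*), -0.12 to 3.21 (*Acta2*) and -1.81 to 1.72 (*Myh11*). At E18.5 it ran from -0.39 to 0.91 (*Pdgfra*), -0.57 to 0.28 (*Tcf21*), -0.10 to 0.055 (*Plin2*), -0.79 to 0.25 (*Tagln*), -0.36 to 0.20 (*Myh11*), -1.04 to 0.42 (*Cnn1*) and -1.31 to 0.0184 (*Des*). Between the stages in *Wfdc2*+/+ lungs it ran from -1.02 to 0.0235 (*Tcf21*), -0.81 to 0.56 (*Plin2*), -1.79 to 0.0226 (*Pdgfrb*), -0.0133 to 0.32 (*Cspg4*), -2.60 to 0.73 (*Acta2*) and -3.28 to 0.25 (*Myh11*), and in *Wfdc2*GFP/GFP lungs from -0.0522 to 0.48 (*Acta2*). The difference between genotype effects ran from -0.46 to 1.35 (*Pdgfrb*), -0.52 to 2.81 (*Acta2*) and -1.73 to 1.80 (*Myh11*). Levels between members were set per exon length, and per gene span their order differs. Planned fits on recovered reads with TMM scaling were not run, and voom at library totals stood in for them.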
